A study of Mus musculus with 23 samples.

Results

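The genes described here are the 5 NF-kB subunits (Nfkb1, Nfkb2, Rel, Rela and Relb) and 5 IkB proteins (Nfkbia, Nfkbib, Nfkbie, Nfkbiz and Bcl3), followed in mouse bone-marrow-derived macrophages (BMDMs) over 6 hr of LPS. They were chosen by name, as the members of both families listed among the 6397 genes of the deposited RNA-seq and Ribo-seq table, and all 10 are in it. Of 4 related ankyrin genes also looked up (Nfkbid, Nfkbil1, Ankrd42 and Ppp1r13b), none is in that table, so the IkB totals below leave them out. The BMDMs were grown from the marrow of C57BL/6 mice in medium supplemented with L929 supernatant (the study's methods give an age of 8 to 12 weeks), and were collected before LPS (0 hr) or after 1, 2, 4 or 6 hr of 100 ng/ml LPS, the bacterial endotoxin that Tlr4 senses. Each of the 5 time points had 2 biological replicates, called A and B. Each culture was split between an RNA-seq library of rRNA-depleted total RNA and a Ribo-seq library of ribosome-protected mRNA fragments (RPFs), which gave 10 libraries per assay. No genetic change separated these cultures, so the groups differ in LPS and time only. A further experiment, CLIP-seq of the RNA-binding protein Zfp36, used BMDMs from mice with a V5 tag knocked in at Zfp36, with 2 CLIP-seq libraries and 1 input library at 4 hr of LPS.

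NF-kB transcription factors are dimers of Rel-homology proteins. Rela, Rel and Relb carry a transactivation domain, whereas Nfkb1 and Nfkb2 are made as precursors (p105 and p100) that are processed to the DNA-binding subunits p50 and p52 and that, unprocessed, hold dimers in the cytoplasm as IkB proteins do. The classical IkB proteins (products of Nfkbia, Nfkbib and Nfkbie) retain dimers in the cytoplasm of resting macrophages until signalling from the LPS receptor Tlr4 through the IKK complex marks them for degradation. The atypical proteins encoded by Nfkbiz (IkBzeta) and Bcl3 act in the nucleus, where they bind p50 or p52 at promoters. Several of these genes are themselves targets of NF-kB, and resynthesis of IkBalpha from Nfkbia is the classical negative feedback of the pathway.

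Promoter sequences of RefSeq (GRCm38.p6) were at hand for 7 of the 10 genes, in 9 windows, and the 250 bases before the start were searched on both strands for GGG and TTCC with any 3 bases between them, and for the kappaB consensus, 2 spellings of the NF-kB binding site whose matches overlap in every window that holds one. At least 1 match to the first spelling was found in 6 of the 9 windows, belonging to Nfkb2 (all 3 of its windows), Rel, Nfkbia and Nfkbie, and the windows of Rela, Nfkbib and Bcl3 held none. It was in 4.65% of 32851 promoter windows of the genome and in 5.47% of 6448 windows of genes in the RPKM table. For the kappaB consensus these shares were 3.9% and 4.73%, and the same 6 windows of the members held it. The 3 Nfkb2 windows belong to 1 gene, and some of their bases are shared, so windows are not separate counts. By gene, the first spelling was in 4 of 7 members and in 326 of 5064 genes of the RPKM table that have a window. A match is a string of letters and not a measured binding site. To show where the matches lie, 4 windows with a match are given with that of Rela, which holds none, each 5′ to 3′ on the strand of the gene with matches to either motif in capitals. The Nfkbib and Bcl3 windows, also without a match, are not shown. The RNA of these genes still reached 6.85 (Nfkbib) and 12.4 (Bcl3) times its 0 hr mean. Whether a match goes with a rise was not tested. The Nfkb2 window shown, the first of its 3, spans chr19:46304487-46304736 (plus strand), the Rel window chr11:23770970-23771219 (minus strand), the Rela window chr19:5637291-5637540 (plus strand), the Nfkbia window chr12:55492648-55492897 (minus strand) and the Nfkbie window chr17:45555450-45555699 (plus strand).
Nfkb2: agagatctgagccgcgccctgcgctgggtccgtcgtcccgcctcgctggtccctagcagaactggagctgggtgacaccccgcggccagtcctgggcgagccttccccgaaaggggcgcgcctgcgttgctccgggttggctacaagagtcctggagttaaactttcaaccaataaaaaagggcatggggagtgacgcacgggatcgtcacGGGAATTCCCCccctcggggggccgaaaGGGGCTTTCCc
Rel: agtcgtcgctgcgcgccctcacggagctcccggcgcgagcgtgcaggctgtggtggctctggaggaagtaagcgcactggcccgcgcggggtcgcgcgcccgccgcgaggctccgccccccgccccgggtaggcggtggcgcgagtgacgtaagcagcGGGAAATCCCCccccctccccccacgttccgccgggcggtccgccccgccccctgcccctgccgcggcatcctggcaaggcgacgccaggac
Rela: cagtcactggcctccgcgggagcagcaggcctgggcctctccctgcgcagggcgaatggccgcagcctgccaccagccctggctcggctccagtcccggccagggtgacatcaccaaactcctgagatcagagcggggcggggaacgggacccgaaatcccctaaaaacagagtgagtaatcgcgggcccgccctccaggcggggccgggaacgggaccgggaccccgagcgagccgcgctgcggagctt
Nfkbia: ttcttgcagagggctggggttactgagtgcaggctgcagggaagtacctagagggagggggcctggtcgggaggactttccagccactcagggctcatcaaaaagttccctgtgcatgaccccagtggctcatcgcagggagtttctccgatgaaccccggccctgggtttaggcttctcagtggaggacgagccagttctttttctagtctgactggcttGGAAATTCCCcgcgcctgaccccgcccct
Nfkbie: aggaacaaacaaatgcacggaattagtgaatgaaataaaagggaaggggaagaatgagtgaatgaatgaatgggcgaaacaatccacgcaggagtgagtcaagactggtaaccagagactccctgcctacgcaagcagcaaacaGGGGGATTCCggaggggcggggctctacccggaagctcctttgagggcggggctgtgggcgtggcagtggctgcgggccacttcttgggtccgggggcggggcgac
Counted back from the start, the Nfkbia match begins at -29, the Nfkbie match at -106 and the first Rel match at -92. In the Nfkb2 window shown, the matches begin at -39, -38 and -11. In the Nfkb2 windows not shown, they begin at -236 and -225, each from its own start.

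The RPKM values (reads per kilobase, scaled to library size, as deposited) have library size and length divided out. Levels of different genes can be set side by side only as far as the lengths used allow. The depth behind the values is known only where low values fall on whole-read steps. The steps put the reads behind the Ribo-seq scale at between 550000 (6 hr replicate A) and 3460000 (4 hr replicate A), with 87.4% to 98.5% of low values whole within 0.06 of a read. No such steps were found for RNA-seq, whose depth is therefore unknown, as is whether its RPKM used coding or transcript length. RNA levels set against each other between genes, and the RNA shares and ratios given below, carry that limit. Replicates correlated at r = 0.991 to 0.997 for RNA and 0.882 (1 hr) to 0.984 (4 hr) for RPFs over all genes, on the log2(RPKM + 1) scale. All 8 macrophage markers (among them Csf1r, Adgre1 and Cd68) were in the table with mean values of at least 10 RPKM, none of the 21 markers of neutrophils, lymphocytes, erythroid cells and dendritic cells was listed, and of 5 fibroblast markers only Col1a1 was, at 0.362 to 1.36 RPKM in RNA. The table holds no value of 0 in any of its 20 libraries. A gene missing from it therefore has no known level here, and its absence does not show that a cell type was absent. The comparisons used limma with values as log2(RPKM + 1), a scale that understates changes of low genes, with one estimate of the spread over the 5 time points and Benjamini-Hochberg adjustment over the 4805 (RNA) or 5277 (RPF) genes with a mean of at least 10 RPKM. All 10 members passed that filter in both assays. The p-values measure the spread between 2 cultures per time point, and in bulk cultures fewer cells expressing a gene and less RNA of it per cell cannot be told apart.

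The mRNAs of all 10 genes were higher after LPS, and their highest means fell at 3 of the time points. Nfkbia and Nfkbiz were highest at 1 hr, Relb, Nfkbie and Bcl3 at 2 hr, and Nfkb1, Nfkb2, Rel, Rela and Nfkbib at 4 hr, and none was highest at 6 hr. For Rela and Nfkbib the RNA replicates at 2 and 4 hr overlapped, and Nfkbib RPFs were highest at 2 hr. At 1 hr, 9 of 10 members were called higher than at 0 hr (all but Rela) against 7.72% of all tested genes called higher. At 2, 4 and 6 hr all 10 were called higher, against 15.7%, 24.3% and 26.1% of genes. The median log2 change of the 10 members against 0 hr was 1.71, 2.61, 2.88 and 2.44 at 1, 2, 4 and 6 hr, whereas the median of all tested genes was -0.15, -0.22, -0.33 and -0.41, so that centring each library on its median makes the members' rises slightly larger. Centred in this way, 10 of 10 members were called at 1 hr. In RPFs 6 members were called higher at 1 hr, against 2.94% of genes called higher, and 9 at each of 2, 4 and 6 hr (all but Rela), against 5.65%, 11.7% and 12.8%. The 1 hr Ribo-seq replicates were the least alike, and the count of members at 1 hr moved both up and down with 1 library left out. With library weights, Relb (adjusted p = 0.123) and Nfkbib (0.0527) were no longer called at 1 hr.

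**Figure D1:**
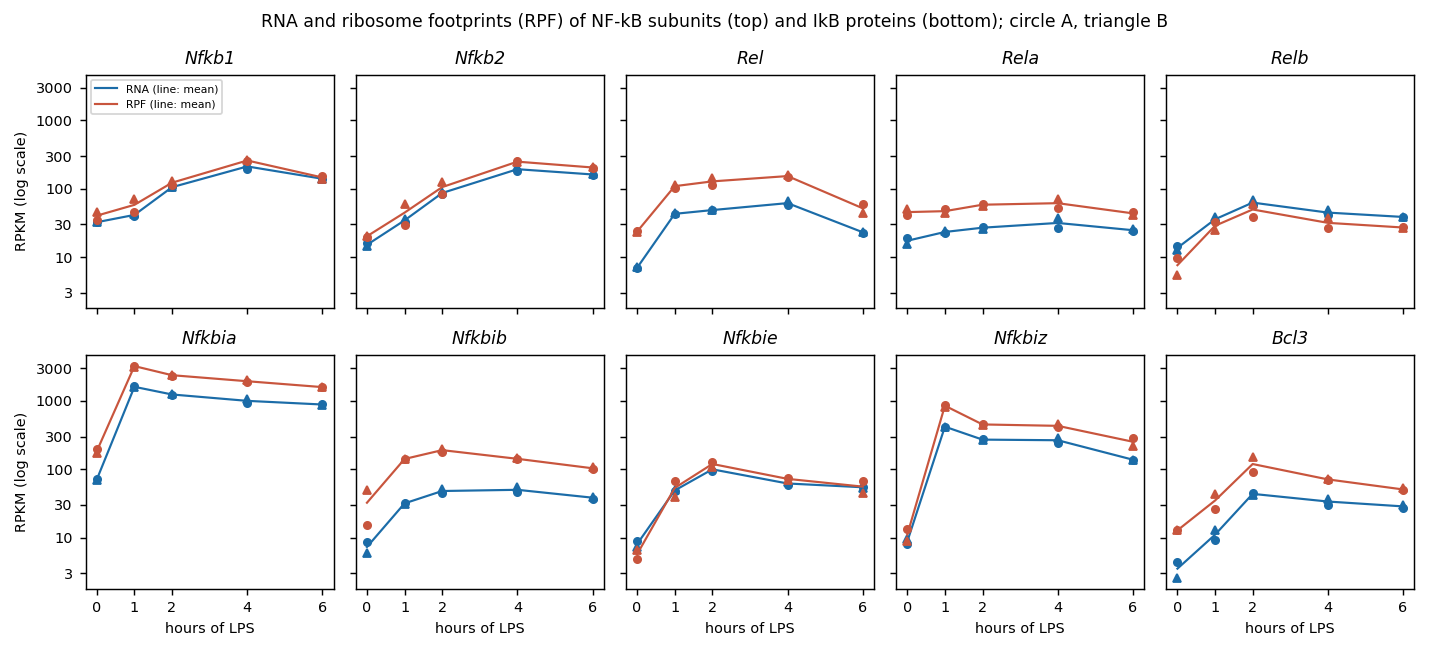
RNA (blue) and RPF (red) RPKM of each gene on a shared log axis against hours of LPS, with the subunits in the upper row and the IkB proteins in the lower; circles are replicate A, triangles replicate B and lines the mean of the 2 replicates. Nfkbia and Nfkbiz peak at 1 hr, Relb, Nfkbie and Bcl3 at 2 hr and Nfkb1, Nfkb2 and Rel at 4 hr, while Rela RNA stays between 15.4 and 36.9 RPKM.

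Among the subunits, the precursor genes Nfkb1 and Nfkb2 climbed until 4 hr and were still high at 6 hr. Nfkb1 lies on chromosome 3 (mm10, 135584655 to 135691547, minus strand). Its RNA was at 32.1 and 32.7 RPKM at 0 hr (replicates A and B), 40.5 and 42.3 at 1 hr, 104.4 and 106.1 at 2 hr, 192.2 and 230.7 at 4 hr, and 140.1 and 139.1 at 6 hr. No 2 time points overlapped, in the order 0, 1, 2, 6 and 4 hr. The RNA was 2.67 higher on the log2 scale at 4 hr than at 0 hr (standard error 0.11, adjusted p = 5.27e-12) and then fell by 0.59 from 4 to 6 hr (standard error 0.11, adjusted p = 0.000673). The small rise at 1 hr (0.35, standard error 0.11, adjusted p = 0.0472) was near the threshold and was lost without any one of the 0, 1, 2 or 6 hr libraries (adjusted p = 0.0658 to 0.249), with 5 RPKM added (0.0545) or with the study's filter (0.0561). Its RPFs were at 35.0 and 45.7 RPKM at 0 hr and at 252.7 and 264.1 at 4 hr (2.66, standard error 0.26, adjusted p = 4.37e-05), with the 1 hr values of 45.2 and 71.0 overlapping those at 0 hr.

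Nfkb2, the precursor of p52 and of the non-canonical branch, lies on chromosome 19 (46304737 to 46312090, plus strand). Its RNA went from 15.9 and 14.4 RPKM at 0 hr to 32.8 and 36.1 at 1 hr, 84.3 and 88.7 at 2 hr, 180.0 and 205.3 at 4 hr, and 160.5 and 162.3 at 6 hr. Every step up to 4 hr was beyond the spread of the replicates, and by 6 hr the RNA still stood at 83.8% of its mean at 4 hr, the smallest loss from the peak among the 10 genes. The rise at 4 hr was 3.59 (standard error 0.11, adjusted p = 1.31e-13), the largest among the subunits, and the difference between 6 and 4 hr (-0.25, standard error 0.11) had an adjusted p = 0.0869. RPFs followed, from 19.7 and 20.7 RPKM at 0 hr to 29.9 and 59.4 at 1 hr, 84.6 and 126.4 at 2 hr, 250.1 and 246.8 at 4 hr, and 198.5 and 209.8 at 6 hr. The 1 hr replicates differ most, and the RPF rise at 1 hr (1.03, standard error 0.32, adjusted p = 0.183) was called only without 1 hr replicate A (adjusted p = 0.00594). The gene overlaps Psd, and Nfkbib overlaps Ccer2, on the opposite strand, and whether reads were counted by strand is not given in the sources used here.

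Rel, the subunit c-Rel of myeloid and lymphoid cells, rose fast and by 6 hr had lost more of its peak than any other subunit. It lies on chromosome 11 (23736847 to 23770969, minus strand). Its RNA was at 6.90 and 7.06 RPKM at 0 hr, 42.4 and 43.4 at 1 hr, 48.5 and 48.9 at 2 hr, 57.3 and 65.8 at 4 hr, and 22.5 and 23.7 at 6 hr. The replicates of no 2 time points overlapped, and the 6 hr values lay below those at 1 hr but above those at 0 hr. The rise of 2.46 at 1 hr (standard error 0.11, adjusted p = 3.64e-11) was the largest among the subunits at that time, and between 4 and 6 hr the RNA fell by 1.37 (standard error 0.11, adjusted p = 1.67e-07), the largest fall of the 10 genes over that interval. RPFs went from 24.2 and 23.0 RPKM at 0 hr to 104.0 and 113.9 at 1 hr, 113.5 and 142.3 at 2 hr, 147.6 and 158.3 at 4 hr, and 58.9 and 44.5 at 6 hr. Rel was the one member whose RPFs were called between 4 and 6 hr, lower by 1.56 on the log2 scale (-1.56, standard error 0.24, adjusted p = 0.0098), where 3.05% of genes were called lower. That call was lost without 4 hr replicate A (adjusted p = 0.102), 4 hr replicate B (0.162) or 6 hr replicate B (0.0637), with changes of -1.61, -1.51 and -1.36. The step of its RNA from 2 to 4 hr (0.33, adjusted p = 0.0165) was lost without either 2 hr replicate or 4 hr replicate B (0.0657 to 0.0889).

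Relb, the partner of p52, peaked at 2 hr. Its locus is on chromosome 7 (19606222 to 19629438, minus strand). The RNA was at 14.6 and 12.7 RPKM at 0 hr, 33.2 and 38.3 at 1 hr, 57.1 and 68.2 at 2 hr, 41.3 and 48.2 at 4 hr, and 38.5 and 38.8 at 6 hr. All time points were above 0 hr, and 2 hr was above all others. The RNA rose by 2.11 at 2 hr (standard error 0.13, adjusted p = 1.06e-09) and was lower at 4 than at 2 hr by -0.47 (standard error 0.13, adjusted p = 0.00489), a call lost without 2 hr replicate B (adjusted p = 0.0773) or 4 hr replicate A (0.0536). RPFs rose from 9.81 and 5.44 RPKM at 0 hr, about 21 footprints in each library, to 39.1 and 60.3 at 2 hr (2.57, standard error 0.39, adjusted p = 0.00191). The RPF rise at 1 hr (1.82, standard error 0.39, adjusted p = 0.0293) did not hold without 0 hr replicate B (adjusted p = 0.240), 1 hr replicate B (0.0566) any one of the 4 and 6 hr libraries (0.0523 to 0.0656), or with library weights (0.123).

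Rela, the p65 subunit of the most common dimer in macrophages, changed least from 2 hr on. On chromosome 19 (5637541 to 5648134, plus strand), its RNA was at 19.3 and 15.4 RPKM at 0 hr, 22.4 and 24.3 at 1 hr, 27.83 and 25.99 at 2 hr, 26.2 and 36.9 at 4 hr, and 24.1 and 25.4 at 6 hr. The 0 hr replicates lay below all others, while 1 and 6 hr overlapped, as did 2 and 4 hr. The rise was 0.41 at 1 hr (standard error 0.15, adjusted p = 0.0660) and 0.61, 0.82 and 0.50 at 2, 4 and 6 hr (adjusted p = 0.00315, 0.000124 and 0.00581). With centred libraries the 1 hr rise was called as well (adjusted p = 0.0219), and without 0 hr replicate B the 6 hr rise was not (0.0739). RPFs were at 40.6 and 50.3 RPKM at 0 hr, 50.3 and 43.6 at 1 hr, 60.4 and 56.2 at 2 hr, 52.8 and 70.0 at 4 hr, and 45.4 and 41.8 at 6 hr. The largest RPF difference, at 4 hr, was 0.42 with a standard error of 0.27 (adjusted p = 0.246), and the F-test over the 5 time points gave an adjusted p = 0.385. In each 0 hr library Rela had more RPFs per kilobase than the other subunits, and at 6 hr it lay below Nfkb1 and Nfkb2, with replicates that overlapped those of Rel.

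**Figure D2:**
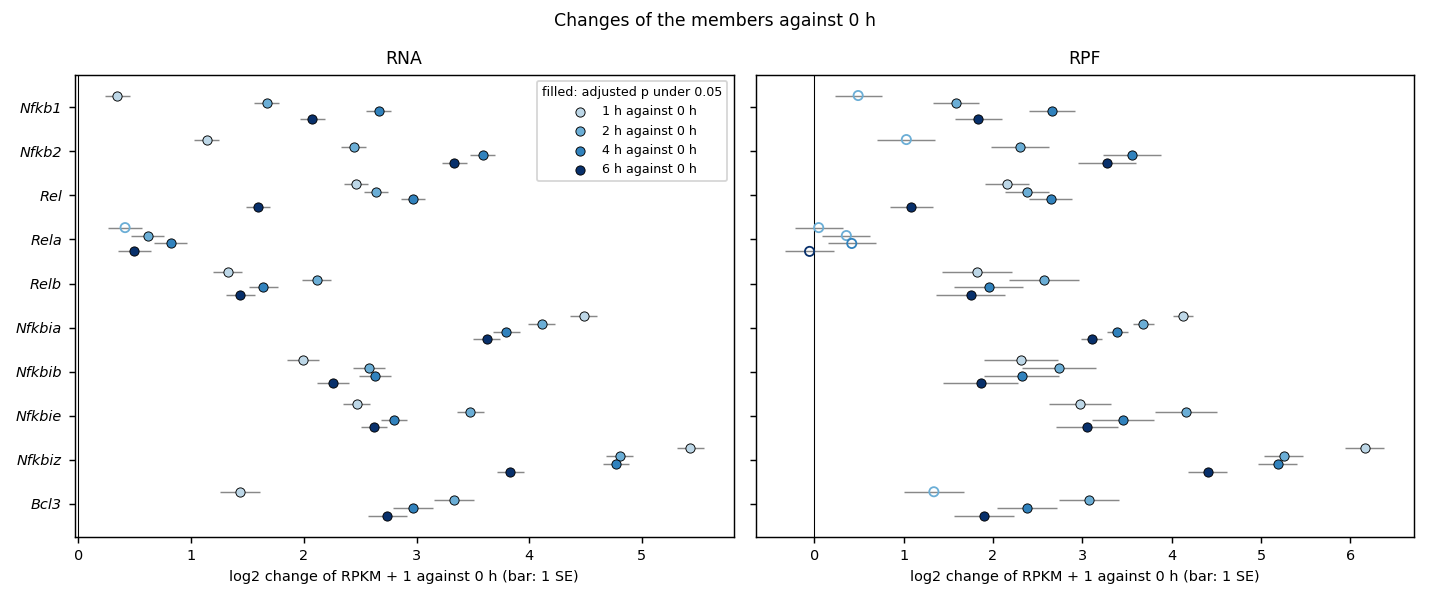
Log2 change of RPKM + 1 against 0 hr for each gene in RNA (left) and RPFs (right), with bars of 1 standard error from limma and shades of blue for 1, 2, 4 and 6 hr; filled points passed an adjusted p of 0.05 and open points did not. Nfkbiz at 1 hr has the largest change in both assays (5.43 and 6.16), and Rela has the smallest from 2 hr on.

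Of the IkB proteins, Nfkbia was by far the most abundant and peaked at 1 hr. The gene lies on chromosome 12 (55489409 to 55492647, minus strand). Its RNA went from 72.8 and 68.7 RPKM at 0 hr to 1625 and 1577 at 1 hr, and was then at 1206 and 1268 at 2 hr, 923.2 and 1073 at 4 hr, and 892.9 and 871.8 at 6 hr. The 5 time points do not overlap and decline in order after 1 hr, with 55.1% of the peak mean left at 6 hr. The rise at 1 hr was 4.48 (standard error 0.12, adjusted p = 8.46e-14), the rank of 19 among 4805 genes. The falls from 1 to 2 hr (-0.37, standard error 0.12, adjusted p = 0.0351) and from 2 to 4 hr (-0.31, standard error 0.12, adjusted p = 0.0365) were lost without any one of the 1, 2 or 6 hr libraries for the former (adjusted p = 0.0594 to 0.177) and without either 2 or 6 hr replicate or 4 hr replicate A for the latter (0.0574 to 0.213), which library weights also ended (0.0619). RPFs were at 196.5 and 170.8 RPKM at 0 hr, 3261 and 3167 at 1 hr, 2312 and 2422 at 2 hr, 1880 and 1985 at 4 hr, and 1597 and 1572 at 6 hr. They kept the same order as the RNA without overlap, and rose by 4.13 at 1 hr (standard error 0.12, adjusted p = 9.99e-09).

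Nfkbiz, the nuclear IkB protein needed for part of the secondary LPS response such as Il6, showed the largest rise of the 10 genes. On chromosome 16 (55811377 to 55838641, minus strand), its RNA was at 8.02 and 9.51 RPKM at 0 hr, 420.7 and 416.3 at 1 hr, 276.3 and 265.4 at 2 hr, 243.9 and 286.4 at 4 hr, and 137.8 and 137.7 at 6 hr. The values at 2 and 4 hr overlap and all other time points are apart, with 6 hr well above 0 hr. The RNA rose by 5.43 at 1 hr (standard error 0.12, adjusted p = 8.43e-15), fell by 0.63 from 1 to 2 hr (standard error 0.12, adjusted p = 0.000831), and fell by 0.94 from 4 to 6 hr (standard error 0.12, adjusted p = 1.53e-05). RPFs were at 13.2 and 8.91 RPKM at 0 hr, 873.5 and 822.0 at 1 hr, 463.3 and 439.3 at 2 hr, 409.8 and 451.4 at 4 hr, and 287.9 and 216.1 at 6 hr. The RPF rise at 1 hr was 6.16 (standard error 0.22, adjusted p = 4.48e-08), the rank of 9 in each assay. The RPF fall from 1 to 2 hr (-0.91, standard error 0.22, adjusted p = 0.0431) was lost without any one of the 1, 2 or 4 hr libraries (adjusted p = 0.0577 to 0.153), with 0.1 RPKM added (0.0547), without the mean-variance trend (0.108) or with library weights (0.208).

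Nfkbie (IkBepsilon) and Bcl3 shared the 2 hr peak of Relb. Nfkbie, on chromosome 17 (45555700 to 45563169, plus strand), had RNA values of 8.94 and 7.20 RPKM at 0 hr, 47.95 and 49.98 at 1 hr, 95.5 and 103.8 at 2 hr, 58.9 and 64.8 at 4 hr, and 55.6 and 53.5 at 6 hr. No time points overlapped, and the changes were 2.47 at 1 hr and 3.48 at 2 hr (standard error 0.12 and adjusted p = 1.04e-10 and 6.80e-13), followed by -0.68 from 2 to 4 hr (standard error 0.12, adjusted p = 0.000143). Its RPFs were at 4.89 and 6.58 RPKM at 0 hr, which is only 7 and 17 footprints, and at 129.6 and 109.0 at 2 hr (4.17, standard error 0.35, adjusted p = 2.36e-05). Bcl3, which binds p50 and p52 homodimers, lies on chromosome 7 (19808462 to 19822755, minus strand) and was the lowest member at 0 hr, with 4.47 and 2.58 RPKM of RNA. It was at 9.37 and 12.7 RPKM at 1 hr, 44.9 and 42.4 at 2 hr, 30.5 and 37.0 at 4 hr, and 27.5 and 29.7 at 6 hr, so most of its rise fell between 1 and 2 hr. That step was 1.90 (standard error 0.18, adjusted p = 5.27e-07), the largest of the 10 genes in that interval. Its RPFs were at 12.7 and 12.8 RPKM at 0 hr, 26.4 and 43.3 at 1 hr, and 89.6 and 148.5 at 2 hr. The RPF rise at 1 hr (1.34, standard error 0.33) had an adjusted p = 0.0701, against 0.0357 with centred libraries and 0.0102 without 1 hr replicate A, and the step from 1 to 2 hr (1.74, adjusted p = 0.0149) was lost without 2 hr replicate B (0.0991) or with library weights (0.0533).

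Nfkbib (IkBbeta), on chromosome 7 (28758251 to 28766644, minus strand), had RNA values of 8.55 and 6.06 RPKM at 0 hr, 32.3 and 31.1 at 1 hr, 44.8 and 51.3 at 2 hr, 45.9 and 54.2 at 4 hr, and 37.0 and 39.7 at 6 hr. The plateau at 2 and 4 hr overlaps and lies above the other times. The rise was 2.63 at 4 hr (standard error 0.14, adjusted p = 1.06e-10), and the step from 1 to 2 hr (0.58, adjusted p = 0.00615) was lost without 2 hr replicate B (0.0797). The fall from 4 to 6 hr (-0.37, standard error 0.14, adjusted p = 0.0467) was not called with centred libraries (adjusted p = 0.135) and without any one of the 1 or 2 hr libraries, 4 hr replicate B or either 6 hr replicate (0.0528 to 0.280), with 0.1 RPKM added (0.0563) or with library weights (0.0617). RPFs at 0 hr differed between the replicates, at 15.2 RPKM in A and 49.6 in B, which correspond to about 21 and 124 footprints. At later times the replicates lay close together, at 141.1 and 141.3 at 1 hr, 180.5 and 199.6 at 2 hr, 139.4 and 144.3 at 4 hr, and 99.8 and 106.6 at 6 hr, all above both 0 hr values. The RPF rise at 2 hr was 2.74 with the largest standard error of the members (0.42, adjusted p = 0.00207), and the rise at 1 hr (2.31, adjusted p = 0.0115) was lost without 1 hr replicate B (0.0535) or with library weights (0.0527).

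Between adjacent time points the members moved both ways. From 1 to 2 hr 6 genes were called higher in RNA (Nfkb1, Nfkb2, Relb, Nfkbib, Nfkbie and Bcl3) and 2 lower (Nfkbia and Nfkbiz), against 12.2% and 10.7% of genes. From 2 to 4 hr Nfkb1, Nfkb2 and Rel were higher and Relb, Nfkbia and Nfkbie lower, against 23.2% and 34.2% of genes, and from 4 to 6 hr Nfkb1, Rel, Nfkbib and Nfkbiz were lower, where 26.5% of genes were. From 2 to 6 hr the members' counts are thus near the shares of all genes, and without 2 hr replicate B 3 in place of 6 members were called from 2 to 4 hr. In RPFs Nfkb1 and Bcl3 were called higher and Nfkbiz lower from 1 to 2 hr, where 2.98% of genes were higher and 2.07% lower, and Nfkb1 and Nfkb2 were called higher from 2 to 4 hr, where 8% of genes were. From 2 to 4 hr Nfkb1 and Nfkb2 RPFs rose by 1.08 and 1.26 (adjusted p = 0.0208 and 0.0268), and both calls were lost without 2 hr replicate A or either 4 hr replicate (0.104 to 0.157), that of Nfkb1 also without 2 hr replicate B (0.0554). The Nfkb1 step from 1 to 2 hr (1.09, adjusted p = 0.0418) was lost without any one library other than 1 hr replicate B (0.053 to 0.163), without the mean-variance trend (0.0736) or with library weights (0.140). Over the whole course the F-test called all 10 members in RNA, where 87.4% of genes were called, and 9 in RPFs, where 48.1% were.

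The make-up of the subunit mRNAs shifted from Rela towards Nfkb2. Of the summed RNA RPKM of the 5 subunits, which rose from 88.8 and 82.2 at 0 hr to 497.1 and 586.9 at 4 hr, Rela made up 21.7% and 18.7% at 0 hr and 6.24% and 6.52% at 6 hr. Nfkb2 went from 17.9% and 17.5% at 0 hr to 41.6% and 41.7% at 6 hr. Rel made up 7.77% and 8.60% at 0 hr, 24.8% and 23.6% at 1 hr, and 5.83% and 6.07% at 6 hr, so its share was highest at 1 hr although its level was highest at 4 hr. Nfkb1 dipped to 23.7% and 22.9% at 1 hr from 36.1% and 39.8% at 0 hr, and was back at 36.3% and 35.7% at 6 hr. In RPFs Rela was at 31.4% and 34.7% at 0 hr and 9.40% and 9.06% at 6 hr, and Nfkb2 at 15.2% and 14.3% and then 41.1% and 45.5%. These shares are descriptions of each library and were not tested.

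**Figure D3:**
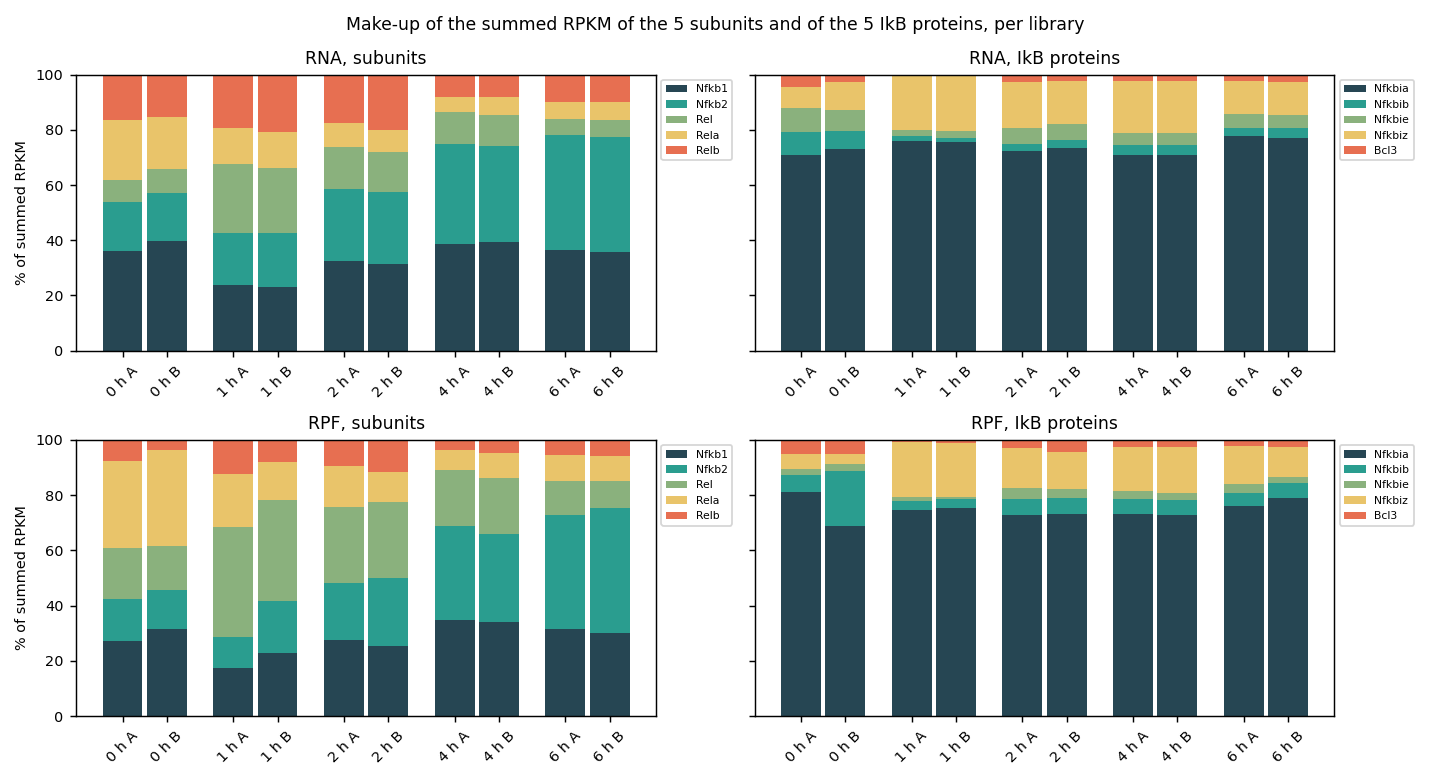
Share of each gene in the summed RPKM of the 5 subunits (left) and of the 5 IkB proteins (right), in RNA (upper row) and RPFs (lower row), with 1 bar per library and percent on the vertical axis. Nfkb2 grows from 17.9% and 17.5% of subunit RNA at 0 hr to 41.6% and 41.7% at 6 hr, and Nfkbia makes up 70.8% to 77.6% of IkB RNA in all 10 libraries.

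IkB mRNA outgrew subunit mRNA at 1 hr, and the ratio between them then fell until 4 hr without returning to its level at 0 hr. The ratio of summed IkB to summed subunit RNA RPKM was 1.16 and 1.14 at 0 hr, 12.5 and 11.3 at 1 hr, 5.18 and 5.12 at 2 hr, 2.62 and 2.58 at 4 hr, and 2.98 and 2.91 at 6 hr. No 2 time points overlapped. In RPFs the ratio was 1.88 and 1.72 at 0 hr, 16.7 and 13.5 at 1 hr, 7.73 and 6.42 at 2 hr, 3.53 and 3.51 at 4 hr, and 4.35 and 4.32 at 6 hr. Nfkbia alone carried most of the level, at 70.8% to 77.6% of IkB RNA in every library, and without it the RNA ratio was 0.338 and 0.308 at 0 hr, 2.98 and 2.77 at 1 hr, and 0.669 in both libraries at 6 hr. Nfkbiz made up 7.81% and 10.1% of IkB RNA at 0 hr and 19.7% and 20.0% at 1 hr. Of the IkB RNA without Nfkbia, it made up 82.4% and 81.6% at 1 hr, so that ratio mostly reflects Nfkbiz at that time.

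Within the non-canonical pair, Nfkb2 and Relb started at similar RNA levels and had begun to part by 2 hr. The ratio of Nfkb2 to Relb RNA was 1.08 and 1.13 at 0 hr, 0.987 and 0.944 at 1 hr, 1.48 and 1.30 at 2 hr, 4.36 and 4.26 at 4 hr, and 4.17 and 4.18 at 6 hr. The ratios at 2 hr lie above those at 0 and 1 hr, and those at 4 and 6 hr above all earlier ones. In RPFs the ratio was 2.00 and 3.80 at 0 hr, 0.924 and 2.37 at 1 hr, 2.166 and 2.096 at 2 hr, 9.45 and 6.69 at 4 hr, and 7.25 and 7.84 at 6 hr, with the early replicates overlapping.

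**Figure D4:**
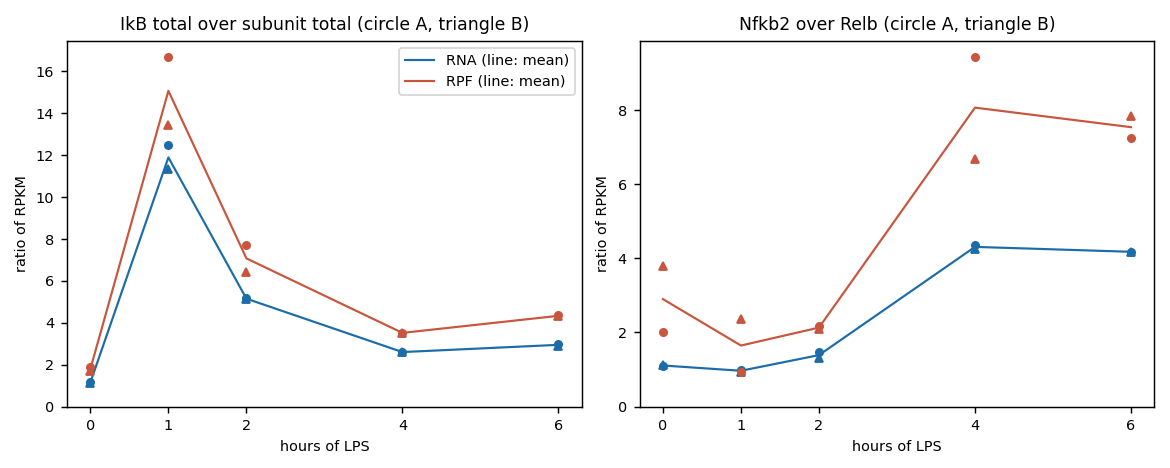
Ratio of summed IkB to summed subunit RPKM (left) and of Nfkb2 to Relb RPKM (right) against hours of LPS, in RNA (blue) and RPFs (red), with circles for replicate A, triangles for replicate B and lines for the mean. The left ratio peaks at 1 hr (12.5 and 11.3 in RNA), and the right ratio in RNA moves from 1.48 and 1.30 at 2 hr to 4.36 and 4.26 at 4 hr.

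The apparent translation efficiency (TE, the RPF RPKM of a culture over its RNA RPKM) spanned a wide range between the members. Relb was below 1 in all 10 cultures (0.429 to 0.975, median 0.687), and Nfkbib was the highest (1.77 to 8.19, median 3.46). By the geometric mean over the 10 cultures, Nfkbib stood at rank 181 of 4621 tested genes, Rel at 527 and Bcl3 at 558, whereas Nfkbie was at 3677 and Relb at 4291. The median TE of all tested genes was 1.496, and 90% of genes lay between 0.627 and 3.28. Levels of TE between genes rest on the lengths used for each assay, and that of the RNA-seq is unknown here.

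No member changed in TE past the threshold in any of the 7 comparisons, and no gene of the 4621 did (0% called by limma over all 10 cultures, with 305, 317, 339 and 558 genes at an unadjusted p under 0.05 at 1, 2, 4 and 6 hr against 0 hr, and 417, 190 and 144 between adjacent later times). With 2 cultures per time point, this absence of calls does not show that TE was unchanged. By another test (Babel, empirical p under 0.05), the study did report differentially translated mRNAs. Among the members, an unadjusted p under 0.05 against 0 hr was reached by Bcl3 and Nfkbia at 6 hr and by Nfkbiz at 1 hr. Bcl3 TE was 2.85 and 4.98 at 0 hr, 2.82 and 3.41 at 1 hr, 1.998 and 3.503 at 2 hr, 2.29 and 1.96 at 4 hr, and 1.78 and 1.76 at 6 hr, a log2 change of -0.84 at 6 hr (standard error 0.32, adjusted p = 0.372). Nfkbia TE was 2.70 and 2.49 at 0 hr and between 1.79 and 2.04 in the 8 later cultures, with a change of -0.52 at 6 hr (standard error 0.20, adjusted p = 0.372). Without 1 hr replicate A, the absence of calls did not hold for the table as a whole, with 294 genes called at 1 hr, 304 from 1 to 2 hr and 108 by the F-test, but no member was among them. The 2 cultures at 0 hr lay above all others for Nfkbia, as they did for Rel (3.51 and 3.25 against 1.88 to 2.91). How many of all tested genes share that order was not counted. Their median TE change against 0 hr was -0.07, -0.13, -0.20 and -0.27 at 1, 2, 4 and 6 hr. The F-test of TE over the 5 time points gave an adjusted p = 0.631 for Nfkbia and 0.711 for Rel. Nfkbiz TE was 1.64 and 0.937 at 0 hr and 2.08 and 1.97 at 1 hr, a change of 0.73 (standard error 0.29, adjusted p = 0.689). At 6 hr the changes ranged from -0.84 (Bcl3) to 0.57 (Nfkbiz), with standard errors of 0.20 to 0.53, against a median of -0.27 over all genes.

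**Figure D5:**
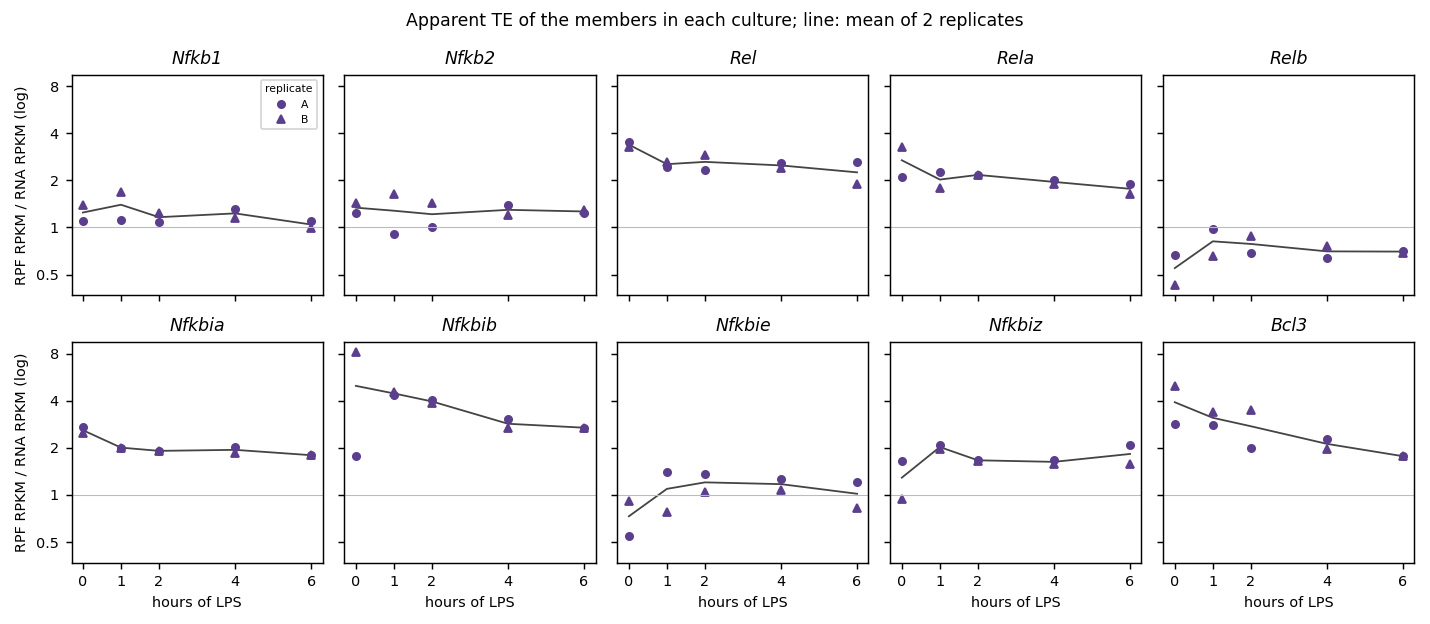
Apparent TE of each gene in each culture on a shared log axis against hours of LPS, with the line at the mean of the 2 replicates and a grey line at a TE of 1. Relb lies below 1 in all 10 cultures, the 0 hr replicates of Nfkbib stand at 1.77 and 8.19, and Bcl3 ends at 1.78 and 1.76 at 6 hr.

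Nfkbia was the one member among the 280 mRNAs of the Zfp36 CLIP-seq list used here, which holds 133 (2.08%) of the genes in the RPKM table. Of the 4 related ankyrin genes that the RPKM table lacks, 1 was in the list as well. Zfp36 (tristetraprolin) binds AU-rich elements in the 3'UTRs of inflammatory mRNAs. The Nfkbia peak, 50 nt wide, lies on chr12:55489601-55489650 and wholly within the 3'UTR, on the minus strand. Its fold over input was 5.43, the rank of 255 among 280 peaks with a median fold of 14.96. A fold of at least 5 was reached by 262 of the 280 peaks, this one among them. The 30 bases around the only TATTTAT in the peak (chr12:55489607-55489636, minus strand, written as DNA with that motif in capitals) show the AU-rich element.
Nfkbia site: ggaccacgtttTATTTATtgtgcttttgat
TATTTAT was in 8.13% of 246 listed peaks of that width that could be placed on an mRNA strand. Over whole 3'UTRs, it occurred 2 times in Nfkbia (513 bases) and 2 times in Rel (5418 bases), and in none of the other 8 members, while 28% of 5846 genes of the table held at least 1. Per the study, the list keeps peaks present in both CLIP-seq experiments and gives 1 value for each, so no replicate spread can be given.

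The genes whose RNA followed each member most closely included fellow members for Relb, Nfkbie and Nfkbiz. The members are only 10 of the 4805 genes tested in RNA, so most close genes could be looked for outside both families. By Pearson r of log2(RPKM + 1) over the 10 RNA-seq libraries, the closest genes to Nfkbia were the deubiquitinase gene Tnfaip3 (0.998) and the inflammasome sensor gene Nlrp3 (0.995), and to Nfkbiz they were Nlrp3 (0.996) and Nfkbia (0.991). Relb and Nfkbie were each other's closest gene (0.991), followed by Gna13 for Relb (0.985) and Klf7 for Nfkbie (0.988). For Nfkb1 they were Ifit1 (0.994) and the cytokine gene Il6 (0.993), for Nfkb2 Mtmr14 and the adaptor kinase gene Irak2 (both 0.997), and for Rel Etv3 (0.986) and Tnfaip2 (0.975). For Nfkbib they were the adhesion molecule gene Icam1 (0.990) and Stx11 (0.989), and for Bcl3 St3gal1 (0.982) and Tiparp (0.977). Rela had the least close neighbours, Spred1 and Cdkn1a (both 0.929). The 10 libraries share 5 time points, so these values describe a common course and nothing more. Within the families, r over the same libraries ran from 0.515 (Nfkb1 and Nfkbiz) to 0.991, with Nfkb1 and Nfkb2 at 0.978.

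The other pathway lists had lower median changes than the 10 members. Over all tested genes 7.72% were called higher and 9.12% lower in RNA at 1 hr, and 26.1% and 54.9% at 6 hr, and the counts of each list are to be read against these shares. Of the TLR4 receptor and its adaptors, 10 genes were tested in RNA, of which 2 were higher and 1 lower at 1 hr and 6 higher and 3 lower at 6 hr. The co-receptor gene Cd14 (1.12, adjusted p = 7.60e-06) and Irak2 (0.86, adjusted p = 1.92e-05) rose at 1 hr, while the receptor Tlr4 fell (-0.48, adjusted p = 0.0093). At 6 hr Irak2 (2.84) and the inhibitory kinase homologue Irak3 (2.61) led the rises, and Tlr4 (-1.36) and Irak4 (-0.93) the falls. The median of the list was 0.02 at 1 hr and 1.07 at 6 hr.

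Among 12 tested genes of the IKK complex and its upstream kinases, 4 were higher and 2 lower at 1 hr, and 8 were higher and 3 lower at 6 hr, with medians of 0.08 and 0.91. The kinase gene Ripk2 (2.27) and Tank (1.097) rose most at 1 hr, while Ikbkg, the regulatory subunit NEMO, and Ripk1 fell (-0.61 and -0.45). At 6 hr the IKK-related kinase gene Ikbke (3.05) and Map3k8 (2.32) led the rises, and Map3k7, which encodes the kinase TAK1, and Ripk1 the falls (-1.06 and -0.63).

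Genes for the degradation of IkB by SCF-betaTrCP changed in both directions, with 1 of 8 tested genes higher (Fbxw11, a betaTrCP F-box gene, 0.84) and 3 lower at 6 hr, led by Skp1a (-0.99) and Nedd8 (-0.82). At 1 hr Fbxw11 was at 0.26 (adjusted p = 0.0905, and 0.0147 with centred libraries). Of 10 tested NF-kB cofactors and nuclear regulators, 2 were lower at 1 hr, Nkiras2 (-0.68) and the acetyltransferase gene Ep300 (-0.40), and at 6 hr 3 were higher and 6 lower, with Hdac1 (1.09) and Nkiras2 (0.98) at the top and the deacetylase genes Hdac3 (-1.04) and Hdac2 (-0.90) at the bottom. The medians of this list (-0.23 at 1 hr and -0.44 at 6 hr) lay near those of all genes. All the genes named as risen or fallen in these lists kept their calls with centred libraries. The counts of each list did change at 1 or 6 hr, as other listed genes gained or lost a call in that setting.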

How the data were processed

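The genes and pathway lists were chosen with earlier results of these data known. Per the study's methods, the authors trimmed reads with the FASTX-Toolkit, removed rRNA, tRNA and mitochondrial reads with Bowtie, mapped the remainder with TopHat (mm10, RefSeq annotation), used HTSeq for read counting, and gave the result as RPKM, the deposited unit, for 6397 genes. CLIP-seq reads were aligned with STAR, peaks were called with Piranha in bins of 50 nt, and the deposited list gives 1 peak caller p-value and fold per peak, with an RPKM column whose library is not stated and that was not used. A second table, with the statistics of the authors' own TE test, was not used.

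Values were analysed as log2(RPKM + 1) in R 4.3.3 with limma 3.58.1 (mean-variance trend, 5 residual degrees of freedom, 7 comparisons per assay), after a filter at a mean of 10 RPKM. TE was the log2 of (RPF RPKM + 1)/(RNA RPKM + 1). Python 3.11.15 (numpy 2.4.6, pandas 2.3.3, matplotlib 3.10.9) did the rest. The fit was tested on simulated data. Exact permutation of 2 against 2 cultures cannot pass 0.05, so no test of single values was made. Alternatives were 0.1 and 5 RPKM added, no filter, the study's filter, median centring, a replicate block, no trend, library weights and each library left out. Named are all 10 members, for each member the 2 genes with the highest r, and for each pathway list the 2 largest rises and falls past the threshold at 1 and 6 hr. The replicates of a time point held no identical value for any gene.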

Additional observations from a re-analysis of the deposited data

How the results depend on the processing

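In all settings but the study's own filter, 8 to 10 members stayed called in RNA at 1 hr, 10 at 2 and 4 hr and 9 or 10 at 6 hr against 0 hr, 9 stayed called in RPFs at 2, 4 and 6 hr, and no call changed direction. The study's filter (over 10 RPKM in every library of both assays) leaves 4 members (Nfkb1, Nfkb2, Rela and Nfkbia) to test, so its counts fall by construction, to 2 (1 hr) and 4 (2, 4 and 6 hr) in RNA against 0 hr, 3 from 1 to 2 hr, 3 from 2 to 4 hr and 1 from 4 to 6 hr, to 1 (1 hr) and 3 (2, 4 and 6 hr) in RPFs against 0 hr and 0 from 4 to 6 hr, and to 4 (RNA) and 3 (RPFs) in the F-test. Library weights ended the RPF calls of Relb and Nfkbib at 1 hr against 0 hr. For RPFs from 1 to 2 hr, 1 member was called without a mean-variance trend and 0 with library weights, which called 3 from 4 to 6 hr. With 1 library left out, the RNA count from 2 to 4 hr ran from 3 to 7, lowest without 2 hr replicate B, and the RPF counts from 0 to 3 (1 to 2 hr, 0 without 2 hr replicate B and 1 without 2 hr replicate A or either 4 hr replicate), 0 to 2 (2 to 4 hr, 0 without 2 hr replicate A or either 4 hr replicate and 1 without 2 hr replicate B) and 0 to 2 (4 to 6 hr, 0 without either 4 hr replicate or 6 hr replicate B and 2 without either 1 hr replicate). Over all genes, the RPF calls from 4 to 6 hr ran from 14 to 432 in place of 233 with 1 library left out, and were 715 with library weights. The causes were not tested.

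The replicate block called 10 members in RNA at 1 hr, 7 from 2 to 4 hr and 5 from 4 to 6 hr, and 4 in RPFs from 1 to 2 hr, and changed no other count. It added Rela in RNA at 1 hr (adjusted p = 0.0206) and from 4 to 6 hr (0.0448), Bcl3 in RNA from 2 to 4 hr (0.0331) and Nfkb2 in RPFs from 1 to 2 hr (0.0434), and raised the genes called in RNA at 1 hr from 809 to 1262. Deviations of same-lettered cultures were positively correlated in RNA for all 10 pairs of time points (0.091 to 0.542, median 0.37) but not in RPFs (-0.022 to 0.017). The sources do not say what the letters share, and the lowest RNA value is under the 0.1 asked for here, so pairing was not taken as established. Without Nfkbia, the ratio of IkB to subunit totals at 1 hr is 2.87 in RNA and 3.79 in RPFs in place of 11.9 and 15.1. Of the 20 closest-gene pairs, 3 recurred by Spearman rho and 4 over the Ribo-seq libraries, so those names depend on the measure. Ribo-seq depth limits Nfkbie and Relb at 0 hr most.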
